A study of Citrus sinensis and Citrus junos and Citrus trifoliata with 12 samples.

Results

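Leaves of a grafted sweet orange scion were compared with stems of the same scion on 1 rootstock, Poncirus trifoliata (Pt). The 4 libraries labelled as leaf or stem of the 'Lane Late' navel orange (Citrus sinensis) grafted on Pt were taken, 2 of leaf and 2 of stem, out of 12 in the series. They listed 24731 gene IDs of the 26559 seen in any library. The series also holds leaves and stems of the same scion on Ziyang xiangcheng (Citrus junos, Cj) and roots of both rootstocks. All 4 libraries carry the label 140 DAF, come from trees planted in 2009 in 1 orchard, and were sequenced in 2015. The title names saline-alkali stress, and every group shared that orchard, so the comparison of leaf with stem has no unstressed counterpart here. The replicates are called biological in the design text, which does not say whether a leaf and a stem library came from the same tree.

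In a grafted citrus tree the rootstock forms the root system and the scion forms the trunk above the union, the branches, the leaves and the fruit. A leaf is the site of photosynthesis and of sugar export. A stem is mostly transport and support tissue, with xylem and phloem on either side of a dividing cambium and a bark outside. Both organs mix many cell types, so fewer cells of a type and less RNA per cell cannot be told apart in these libraries. The gene IDs are not paired with names in the files, and 0 of 26559 matched the RefSeq table used here. Genes are therefore given by ID with no function, and the organ labels could not be checked against marker genes.

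The leaf libraries held 11364132 and 10968748 estimated counts and the stem libraries 11383332 and 10963684. Leaf libraries listed 22306 and 22212 IDs and stem libraries 23152 and 22911. After thinning to 10963699 counts each, leaf libraries still listed fewer, at 22239 and 22176 IDs against 23087 and 22875 in stem. With 2 libraries against 2, an exact permutation test cannot go below p = 0.333 (two-sided), so no test is given for these numbers. On the log2 scale of CPM, which is a gene's count scaled to the size of its library, Pearson's r over 19488 genes was 0.984 between the leaf libraries, 0.982 between the stem libraries and 0.867 to 0.880 between a leaf and a stem library. These values describe the libraries, since genes are no replicates. A first principal component with 88.2% of the variance placed both leaf libraries (-76.5 and -78.5) apart from both stem libraries (80.8 and 74.3). The biological coefficient of variation was 12.03% in leaf and 13.05% in stem.

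Leaf and stem differed in a large share of the genes they express, and the large differences were mostly genes that were low in leaf. The test covered 19488 genes and called 7968 of them (40.9%), with 3870 higher in leaf (19.9%) and 4098 lower in leaf (21.0%). At least 4-fold differences were uneven, with 400 genes higher (2.05%) and 1156 lower (5.93%) in leaf. At 16-fold or more there were 67 higher and 325 lower genes. The median log2 fold change was 0.94 among genes that passed as higher and -1.23 among those that passed as lower. For every one of the 7968 genes both libraries of one organ lay above both of the other, which the call itself favours. Over all 19488 genes tested, both leaf libraries lay above both stem libraries in 6751 (34.6%) and below them in 7095 (36.4%). Genes were tested by edgeR's quasi-likelihood method on rounded counts of these 4 libraries, called at a Benjamini-Hochberg adjusted p under 0.05.

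A gene that passes the filter on low counts through 1 organ alone is bound to differ, so genes were also counted without such cases. The minimum of 0.896 CPM was reached in both leaf libraries and neither stem library by 175 genes, and in both stem libraries and neither leaf library by 759. Among the 17740 genes that reached it in all 4 libraries, 3669 were higher and 3333 lower in leaf. The 4-fold differences of those genes still leaned to stem, with 268 higher and 537 lower in leaf.

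**Figure D1:**
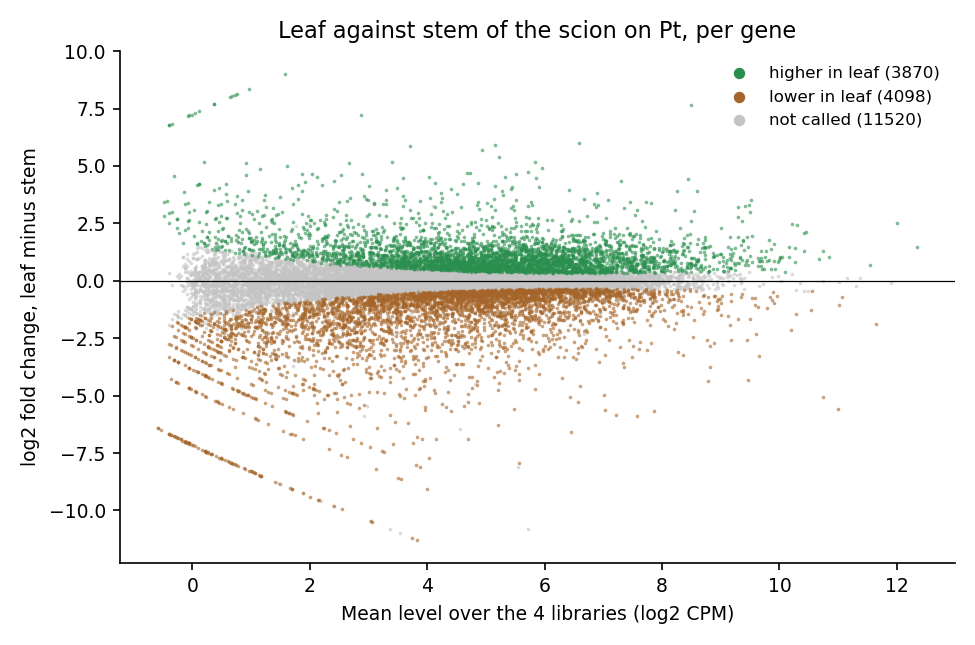
Each point is 1 of the 19488 genes tested, with its mean level over the 4 libraries (log2 CPM) on the x axis and its log2 fold change, leaf minus stem, on the y axis. The 3870 genes higher in leaf and the 4098 lower in leaf are coloured, and the slanted rows of points at the left are genes with 0 or a few counts in 1 organ, whose fitted fold changes depend on the prior count.

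Genes with very large differences included some that were on in one organ and close to off in the other. Those given first, 2 in each direction, had the largest fold changes among genes whose 4 log2 CPM values had a mean of 3 or more. That mean is low for a gene with no count in 1 organ, so genes such as Cs2g20850, given further on, fall outside. The fitted log2 fold change of Cs2g20850 was larger in size, at -11.27, but such a value depends on the prior count. Orange1.1t00203 stood at 681 and 749 CPM in the leaf libraries, against 4.03 and 3.01 CPM in the stem libraries. The leaf libraries held 7337 and 7995 of its counts, while the stem libraries held 48 and 34. Its log2 fold change was 7.66 ± 0.20 (SE, adjusted p = 2.6e-08). Orange1.1t00730 stood at 164 and 217 CPM in leaf, against 3.61 and 2.30 CPM in stem. Its log2 fold change was 5.997 ± 0.233 (SE, adjusted p = 8.5e-08), and some of its deposited counts were not whole, as happens when reads are divided between similar genes. The same holds for Cs5g13890, Cs5g27060, orange1.1t05126, Cs4g09550, Cs7g18150, Cs6g11120, Cs3g10320, Cs5g21860, Cs9g14360 and Cs9g14380 among the IDs with 1 transcript given further on. It also holds for a run of IDs from Cs9g18040 to Cs9g18110, so all these values are uncertain in that respect.

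In the other direction, Cs5g13890 stood at 1.95 and 1.59 CPM in leaf, against 157 and 186 CPM in stem. Its log2 fold change was -6.59 ± 0.20 (SE, adjusted p = 4.3e-08). Cs2g27530 stood at 0.371 and 1.499 CPM in leaf, against 66.6 and 77.8 CPM in stem. Its leaf libraries rested on 4 and 16 counts, so the leaf level is known only roughly, while the stem libraries held 793 and 879. Its log2 fold change was -6.26 ± 0.32 (SE, adjusted p = 4.2e-07). The p-values of all 4 genes come from the edgeR quasi-likelihood fit, Benjamini-Hochberg adjusted. The rule that chose these 4 genes required leaf and stem libraries that did not overlap.

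**Figure D2:**
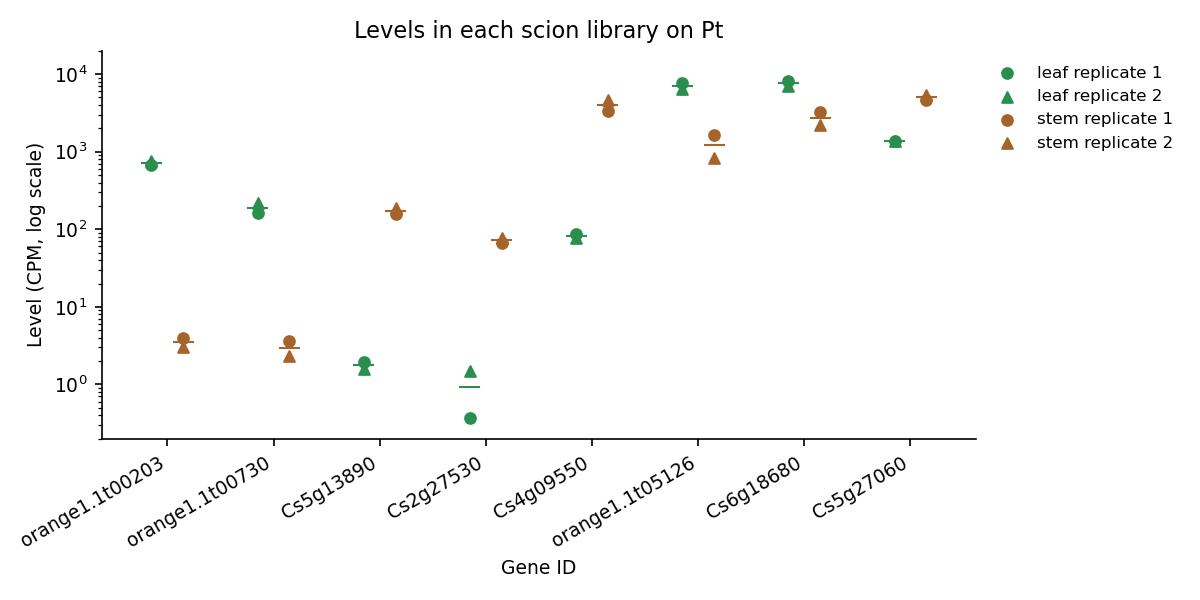
Levels in CPM (log axis) of 8 genes in the 2 leaf libraries (green) and the 2 stem libraries (brown) on Pt, with circles for replicate 1, triangles for replicate 2 and a line at each mean. From orange1.1t00203 (681 and 749 CPM in leaf, 4.03 and 3.01 in stem) to Cs5g27060 (1357 and 1379 in leaf, 4653 and 5391 in stem), leaf and stem libraries stand apart in every gene shown. For the genes named by rule, the rule required this.

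The most abundant transcripts differed by organ too, though less steeply. Per length, the highest leaf gene was Cs6g18680, with 5025 and 4444 FPKM (fragments scaled to transcript length and library size) in leaf, against 2233 and 1465 FPKM in stem. Its log2 fold change on counts was 1.47 ± 0.22 (SE, adjusted p = 3.0e-04). The highest stem gene was Cs5g27060, with 3388 and 3531 FPKM in leaf, against 12811 and 14607 FPKM in stem. This transcript of 408 bases took 2.05% and 2.29% of all FPKM in the stem libraries, and its log2 fold change on counts was -1.88 ± 0.17 (SE, adjusted p = 9.7e-06). Orange1.1t05126 stood at 7705 and 6376 CPM in leaf, against 1644 and 826 CPM in stem, where the replicates lay far apart (log2 fold change 2.51 ± 0.31 SE, adjusted p = 2.8e-04). Cs4g09550 had the largest fold change lower in leaf among genes with an average log2 CPM of at least 10, at 87.4 and 77.0 CPM in leaf, against 3366 and 4605 CPM in stem (log2 fold change -5.60 ± 0.22 SE, adjusted p = 7.8e-08). The p-values are from edgeR's quasi-likelihood test, and the choice of these 4 IDs was made after seeing their values.

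The lists of most abundant genes overlapped less the shorter they were. Of the 10 genes with the highest mean FPKM in each organ 3 were shared, of the 100 highest 47, and of the 1000 highest 705. Among the 100 highest in leaf, 72 were called higher and 8 lower in leaf. Among the 100 highest in stem, 19 were called higher and 54 lower in leaf. Ranking by the level in 1 organ favours calls toward that organ. Over all genes tested, 19.9% were called higher and 21.0% lower in leaf. Among genes with an average log2 CPM of at least 7 the shares were 34.8% and 18.8%. By counts, the 100 most abundant genes held 13.7% ± 0.278 of a leaf library and 12.3% ± 0.294 of a stem library (SD, n = 2 each). By FPKM, which favours short transcripts, the order turned, at 17.7% ± 0.600 in leaf and 19.2% ± 0.679 in stem (SD, n = 2 each). It did not turn for the 1000 most abundant genes, which held 45.3% ± 0.478 of FPKM in leaf and 44.3% ± 0.998 in stem (SD, n = 2 each). It took 1605 and 1654 genes to make up 50% of the counts in the leaf libraries, against 1920 and 1852 in the stem libraries, and 1289 and 1332 genes for 50% of the FPKM in leaf, against 1464 and 1346 in stem.

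Seen as shares of the RNA counted, the genes called higher in leaf made up 41.2% and 41.0% of the counts in the leaf libraries, against 21.5% and 21.5% in the stem libraries. The genes called lower in leaf made up 11.9% and 11.6% of the leaf libraries, against 27.4% and 27.9% of the stem libraries. The 11520 genes not called held 46.9% and 47.3% of leaf counts and 51.0% and 50.6% of stem counts. These shares were computed on genes chosen for their difference and describe its weight.

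The direction of the difference moved with the level of a gene, taken as the average log2 CPM that edgeR gives. Among genes under 1, 8.31% were higher and 24.5% lower in leaf. In the class from 3 to 5 the shares were 19.1% and 22.3%. In the class of 7 and above, 34.8% were higher and 18.8% lower in leaf, against 19.9% and 21.0% over all genes tested. The genes that passed as higher were thus 25.3% of the calls in the lowest class and 64.9% in the highest. In the lowest class 1217 of 1577 genes were under the filter's minimum in at least 1 library. Counted over the genes at or above the filter's minimum in all 4 libraries, chosen after seeing the data, it kept 360 genes, with 3 called higher and 1 lower in leaf, so its lean to stem was not seen there. That count also removes genes that are low in 1 organ. In the other classes the share of calls that were higher in leaf was then 39.8%, 47.0%, 57.6% and 64.9%, low level to high. Among those genes, 4-fold or larger differences numbered 43 higher and 116 lower in leaf in the class from 1 to 3, and 44 higher and 37 lower in the highest. No test was run across the classes, whose genes are not replicates. Scaling to library totals alone, without trimmed-mean factors, moved the median log2 fold change of all genes to -0.13, against -0.02 with the factors, and the share of higher genes among the calls of the highest class to 55.7%.

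**Figure D3:**
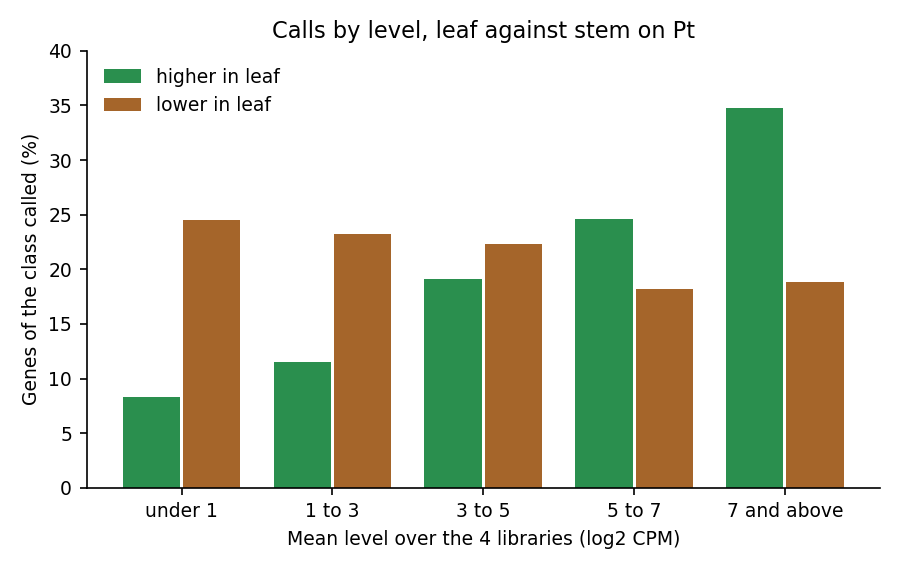
Percent of tested genes called higher (green) and lower (brown) in leaf, for 5 classes of mean level over the 4 libraries (log2 CPM). The share higher in leaf runs from 8.31% in the lowest class to 34.8% in the highest, and the share lower in leaf from 24.5% to 18.8%, with 1217 of the 1577 genes of the lowest class under the filter's minimum in at least 1 library.

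Few genes were seen in leaf and not in stem, or in stem and not in leaf. With at least 20 counts in both libraries of one organ and no listed count in either library of the other, there were 6 leaf genes and 43 stem genes. Of the 43 stem genes 24 had at least 20 counts in a root library, and of the 6 leaf genes 1 did. The matching shares over all genes are not given here, for roots or for Cj, so these counts have no background. Cs2g20850, the most abundant of the stem genes, stood at 0 in both leaf libraries, against 26.3 and 28.9 CPM in the stem libraries (313 and 326 counts). Set against a floor of 3 counts per library, 0.280 CPM in leaf, it was at least 98.5-fold lower in leaf. Cs6g11120, the most abundant of the leaf genes, stood at 6.49 and 4.97 CPM in leaf (70.0 and 53.3 counts) and at 0 in stem. Against a floor of 0.259 CPM in stem it was at least 22.2-fold higher in leaf. These IDs and Cs3g10320 were chosen after their values were seen. The floors cover counting error only, and PCR copies were not marked. Cs6g11120 had no count in leaf or stem on Cj, whereas Cs2g20850 had 287 and 384 counts in stem and 0 in leaf there. At a minimum of 10 counts, 38 of 96 stem genes and 2 of 16 leaf genes met the limits on Cj too. At 20 counts, 20 of the 43 stem genes met the same limits on Cj, and 0 of the 6 leaf genes did. Cs3g10320, the next leaf gene, at 3.62 and 3.66 CPM in leaf on Pt, missed them by few counts, with 72.3 and 54.7 counts in leaf on Cj, against 5.36 and 0 in stem.

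Most genes stayed within a narrow range. For 10656 of 19488 genes (54.7%) the 95% interval of the log2 fold change lay within 1 of 0, which is less than a 2-fold difference either way. Of these, 990 still passed as higher and 810 as lower in leaf, with small differences measured closely. A further 2664 genes (13.7%) neither passed nor had an interval that narrow, so for these neither a difference nor a difference under 2-fold was shown.

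The share of genes called was close to the background over the parts of the ID list. IDs that begin with Cs1 to Cs9 had 18.3% to 20.7% called higher and 20.2% to 22.6% lower in leaf. IDs of the orange1.1t form had 20.8% called higher and 18.5% lower. By length, the shortest of 5 classes of equal size (150 to 1034 bases) had 16.6% higher and 20.3% lower, and the longest (2620 to 16410 bases) 18.5% and 18.0%. At least 4-fold lower in leaf were 335 of the shortest 3900 genes and 102 of the longest 3898. Shorter genes also had lower levels, with a median log2 CPM of 2.83 in the shortest and 5.41 in the longest class, and the part of level in this was not tested. IDs with 1 transcript had 314 genes higher and 998 lower in leaf by 4-fold or more among 12065, and IDs with 5 or more had 2 higher and 4 lower among 873. Over all genes tested the shares were 2.05% higher and 5.93% lower. Levels differed here too, with a median log2 CPM of 3.72 for 1 transcript and 6.07 for 5 or more, and the part of level was not tested.

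Genes with neighbouring IDs were more often alike than the background. After a tested ID of the Cs form that was called higher in leaf, the next tested ID was called higher in 26.8% of cases and lower in 17.7%, where 19.7% of next IDs were higher over all 16353 pairs. After an ID called lower, the next was lower in 28.6% and higher in 15.4%, where 21.5% were lower over all pairs. For at least 4-fold lower genes the next ID was of the same kind in 11.7% of cases, against 5.999% over all pairs. For at least 4-fold higher genes it was of the same kind in 6.31%, against 2.04% over all pairs. Opposite neighbours at that size were near the background. They made up 5.41% after a higher ID, against 5.999%, and 2.03% after a lower ID, against 2.04%. Copies of a gene that share reads can carry one another's counts, and their part in this was not tested.

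Runs of consecutive tested IDs with at least 4-fold differences reached 4 IDs higher and 6 IDs lower in leaf. The leaf run, Cs9g14350 to Cs9g14380, held abundant genes, and Cs9g14370 stood at 2005 and 2254 CPM in leaf, against 324 and 457 CPM in stem. Cs9g14360 stood at 1945 and 2070 CPM in leaf, against 306 and 425 CPM in stem. The log2 fold changes of the 4 IDs were 2.31 to 3.45. The tested IDs on either side, Cs9g14330 and Cs9g14440, had log2 fold changes of 0.23 ± 0.36 and -0.18 ± 0.62 (SE).

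The stem run, Cs9g18040 to Cs9g18110, held lower levels, and Cs9g18100 led it with 0.928 and 0.843 CPM in leaf, against 35.9 and 37.1 CPM in stem. Its log2 fold change was -5.35 ± 0.23 (SE, adjusted p = 1.3e-07 by the edgeR fit). All 6 IDs of the stem run had fractional counts with 1 transcript each, so their reads were shared with other IDs and the single values are uncertain. In the leaf run this held for 2 of 4 IDs, Cs9g14360 and Cs9g14380. The runs were found after the values had been seen.

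The deposited length of an ID with several transcripts moves with which of them were counted, and it gave a readout that the comparison of counts did not use. Of 6850 such IDs with at least 50 counts in all 4 libraries, 1007 were longer and 1370 shorter in both leaf libraries than in both stem libraries. Differences of at least 1.25-fold with no overlap were rare, at 6 IDs longer (0.0876%) and 12 shorter (0.175%) in leaf. The 2 replicates of an organ differed by as much in 10 IDs. Cs4g18070, with 2 transcripts, had a mean length of 1166 and 1118 bases in leaf, against 2368 and 2023 bases in stem. It was also higher in leaf by count (log2 fold change 1.82 ± 0.13 SE, adjusted p = 1.6e-06). Cs5g33810, with 2 transcripts as well, had 1063 and 1036 bases in leaf, against 1794 and 1983 bases in stem, and was lower in leaf by count (-1.36 ± 0.18 SE, adjusted p = 1.4e-04).

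Orange1.1t01792, with 7 transcripts, had 2690 and 2672 bases in leaf, against 1872 and 1780 bases in stem. Cs7g05600, with 4 transcripts, had 2122 and 1706 bases in leaf, against 1140 and 1122 bases in stem. Its leaf libraries rested on 151 and 178 counts and its stem libraries on 629 and 712. On Cj, which shares no library with this comparison, all 6 IDs longer in leaf and 10 of the 12 shorter in leaf were separated in the same direction. Over all 6748 IDs with enough counts there, 1086 were longer and 1355 shorter in both leaf libraries. These lengths were examined after the files had been seen, with no test, and the p-values given for counts are from edgeR's quasi-likelihood test.

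**Figure D4:**
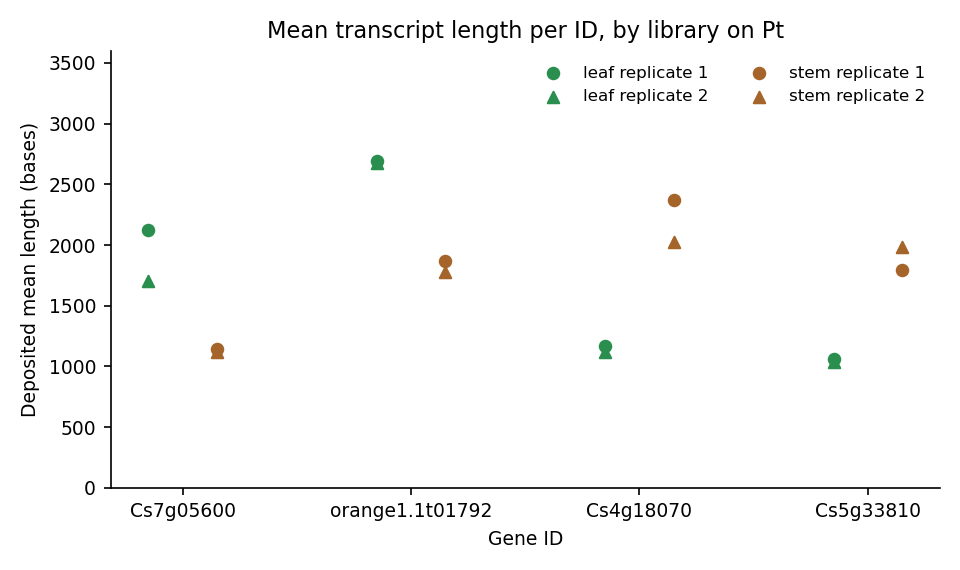
Deposited mean length in bases of 4 IDs with several transcripts in each leaf library (green) and stem library (brown) on Pt, with circles for replicate 1 and triangles for replicate 2. Cs4g18070 stands at 1166 and 1118 bases in leaf and at 2368 and 2023 bases in stem, and all 4 IDs are separated between the organs.

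Some of the steepest differences did not pass, and in these the stem libraries lay far apart. There were 14 genes with a fitted difference of at least 16-fold and no call, with adjusted p from 0.0653 to 0.314 by edgeR's quasi-likelihood fit. Fitted values of genes with no leaf count depend on the prior count. All 14 were lower in leaf in both libraries, and in all 14 stem replicate 1 lay above stem replicate 2, by 3.56-fold to 16.4-fold. Cs2g09310 stood at 0 and 0.0937 CPM in leaf, against 186 and 22.7 CPM in stem. Cs5g21860 stood at 0.371 and 0.281 CPM in leaf, against 174 and 10.6 CPM in stem. On Cj these 2 IDs stood at or below 0.684 CPM in leaf, against 76.0 and 38.9 CPM for Cs2g09310 and 74.8 and 13.9 CPM for Cs5g21860 in stem. Both IDs were picked with their values in view.

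Replicates that far apart were rare among all genes. Of 19488 genes, 32 were at least 4-fold higher in stem replicate 1 than in replicate 2 and 9 the reverse, after adding 0.5 CPM to each value. Between the leaf libraries the numbers were 15 and 10. Of the 32 genes, 26 were lower in leaf by sign and 22 at least 4-fold lower, and 5 were called. Over all genes tested 40.9% were called, 21.0% as lower in leaf. The choice of the 32 genes favours a high stem mean and a wide spread, so their lean and their few calls are partly built in.

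The same contrast on the other rootstock was measured in 4 other libraries, and most calls recurred there. On Cj 8131 of 19489 genes passed (41.7%), 4022 higher (20.6%) and 4109 lower (21.1%) in leaf. Of the 3837 genes called higher on Pt and tested on Cj, 3002 were also called higher on Cj and 9 lower. Of the 4013 genes called lower on Pt and tested on Cj, 3148 were also called lower on Cj and 7 higher. The shared calls were 78.2% and 78.4% of those Pt lists, and 75.4% and 78.1% of the matching Cj lists. Among genes at least 4-fold apart on Pt, 354 of 378 higher and 1020 of 1087 lower in leaf were called alike on Cj. Their median log2 fold changes were 2.72 on Pt and 2.68 on Cj for the higher genes, and -2.95 on Pt and -2.99 on Cj for the lower ones. Over 19165 genes the fold changes on Pt and Cj had a Pearson's r of 0.895 and a Spearman's rho of 0.856, given as a description because all values come from 1 scion cultivar and 1 set of gene models.

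A test of the difference itself called 3 of 20004 genes (0.015%). It compared the leaf minus stem difference on Pt with that on Cj in 1 edgeR quasi-likelihood fit of the 8 scion libraries, and 1887 genes had an unadjusted p under 0.05. Cs7g18150 stood at 3.68 and 3.17 CPM in leaf, against 21.2 and 21.5 CPM in stem on Pt, while on Cj it stood at 11.0 and 8.97 CPM in leaf, against 10.7 and 11.1 CPM in stem. Its difference between rootstocks was -2.51 ± 0.28 on the log2 scale (SE, adjusted p = 0.023). Cs3g01590 stood at 10.8 and 11.8 CPM in leaf, against 56.8 and 42.4 CPM in stem on Pt, while on Cj it stood at 61.8 and 48.5 CPM in leaf, against 55.5 and 55.0 CPM in stem. Its difference was -2.13 ± 0.25 (SE, adjusted p = 0.023). For Cs3g01590 the leaf on Pt stood apart from the other 3 groups, and for Cs7g18150 the leaf on Pt was the lowest and the stem on Pt the highest group.

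The third, Cs5g09000, lies below the level set for named genes. It stood at 12.8 and 10.6 CPM in leaf, against 2.16 and 2.02 CPM in stem on Pt, and at 1.13 and 1.77 CPM in leaf, against 3.33 and 4.13 CPM in stem on Cj. Its difference was 3.84 ± 0.43 (SE, adjusted p = 0.023 by the same edgeR fit). The number of such genes depended on single libraries. It was 0 without Pt leaf replicate 1 or Pt stem replicate 1, where 1624 and 1417 genes had an unadjusted p under 0.05 and DESeq2, added after seeing the data, called 99 and 72. It was 5 without Pt leaf replicate 2, 7 and 18 without Cj leaf replicate 1 and 2, 12 with Cj stem replicate 1 left out and 250 with Cj stem replicate 2 left out. With all 12 libraries in the fit it was 64, and DESeq2 called 227.

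**Figure D5:**
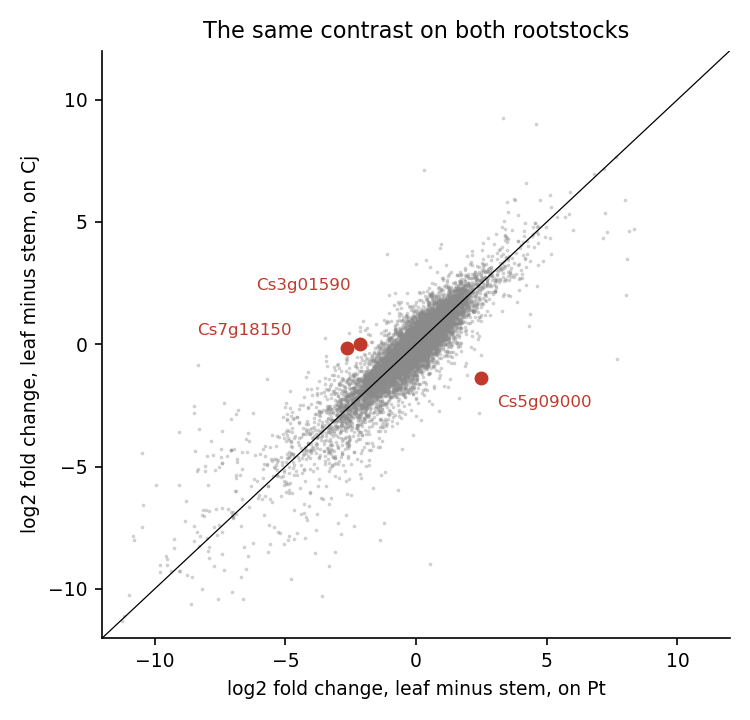
Log2 fold change, leaf minus stem, on Pt (x axis) and on Cj (y axis) for the 19165 genes tested in both, 1 point a gene, with the line of equal values. The 3 genes called in the test of the difference are marked in red, and Pearson's r over all points is 0.895.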

How the data were processed

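Poly(A) RNA was fragmented, copied from random primers and amplified by PCR, per the labels' protocols. The sources used here name no aligner, counter, strandedness, genome build or annotation, so values of overlapping genes and of near-identical copies are uncertain. Per the file headers, the authors deposited an expected count, an FPKM and a length per gene ID in 1 table a library. Between 73.1% and 74.3% of the deposited counts of the 4 libraries were whole within 0.005. The deposited FPKM values could be rebuilt from the deposited counts with each length shortened by 36.45 to 36.55 bases. An ID missing from a table was taken as 0.

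Counts were rounded and tested with edgeR 4.0.16 (limma 3.58.1, R 4.3.3): filterByExpr, which kept 19488 genes and left 5243 untested, trimmed-mean (TMM) scaling, a robust quasi-likelihood fit of the 4 libraries with 2 residual degrees of freedom, and Benjamini-Hochberg adjustment over all genes tested. Standard errors are the log2 fold change over the square root of F. CPM uses TMM-scaled sizes, with factors of 0.950 and 0.974 in leaf and 1.05 and 1.03 in stem. Alternatives used DESeq2 1.42.0 and limma on log2(FPKM + 1) or log2(FPKM + 0.1). A chi-square of counts per degree of freedom was 8.20 between leaf and 8.48 between stem libraries, so neither pair agreed within sampling noise. On simulated counts for leaf minus stem on Pt over 19220 genes, 75 of 100 genes with a 2-fold change and 95 of 100 with a 4-fold change were recovered, and 26 unchanged genes were called. Changes were planted only in genes above a minimum mean count, and in a far smaller share than the 40.9% called in the data. The rates were therefore not shown to hold for the real comparison.

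The comparison and its lists were chosen with earlier results of these data known. Named genes are the 2 IDs per direction with the largest fold change among called genes whose 4 log2 CPM values (prior count 2) have a mean of 3 or more and whose libraries do not overlap. With edgeR's average log2 CPM in place of that mean, the rule would give Cs2g20850 and Cs3g14590 as the 2 lower in leaf and the same 2 higher in leaf. For the difference between rootstocks the rule is the same, over the 8 scion libraries and without the condition on overlap, and 2 genes met it, both in 1 direction. Marker lists written as patterns on gene descriptions could not be applied, since no ID was named.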

Additional observations from a re-analysis of the deposited data

Results flagged for a closer look

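The difference between leaf and stem itself differed between the rootstocks for 3 genes, by the test of that difference over the 8 scion libraries (edgeR's quasi-likelihood test, adjusted p = 0.023 each). The leaf minus stem difference on Pt minus that on Cj was -2.13 for Cs3g01590, 3.84 for Cs5g09000 and -2.51 for Cs7g18150 on the log2 scale. Cs5g09000 had opposite directions, with a log2 fold change of 2.48 ± 0.26 on Pt and -1.37 ± 0.37 on Cj (SE, adjusted p = 3.0e-05 and 0.021, each rootstock fitted alone with edgeR). With both libraries of every group kept, the 3 genes passed in every edgeR fit. DESeq2 passed Cs3g01590 and Cs7g18150 and gave no adjusted p for Cs5g09000. The calls depended on the Pt libraries. With a Pt library left out, Cs7g18150 lost its call each time, and Cs3g01590 and Cs5g09000 did so in most cases. With a Cj library left out, each gene kept its call. Over all settings the difference was -2.319 to -1.91 for Cs3g01590, 3.549 to 4.2 for Cs5g09000 and -2.642 to -2.351 for Cs7g18150.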

How the results depend on the processing

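The count of genes called stayed within 1.5 times 7968 in all 16 alternatives, from 5728 at an adjusted p under 0.01 to 8588 with all 12 libraries in the fit, and in no alternative did a called gene pass in the opposite direction. With 1 library left out it was 6131 to 6703. In every one of 16 fits at the same threshold, the reported one included, 2395 genes were called higher and 2469 lower in leaf. At least 4-fold genes numbered 850 on log2(FPKM + 1) and 855 without its filter, where the added 1 shrinks low genes; without the filter 16811 genes had an interval within 1 of 0, and the cause was not tested. Over the genes at or above the filter's minimum in all 4 libraries, added after seeing the data, the lowest level class held 4 calls, 3 higher and 1 lower in leaf (75.0% higher), against 25.3% over all genes tested. Library totals alone gave 3213 higher and 4974 lower. The 4 named genes passed in all fits that gave a value, with adjusted p up to 0.0012. The difference between rootstocks called 64 genes with all 12 libraries, 227 by DESeq2 and 51 with a replicate block, and 0 to 250 with 1 library left out; DESeq2, added after seeing the data, called 99 without Pt leaf replicate 1 and 72 without Pt stem replicate 1. The cause was not tested. Where an organ was left with 1 library, that library was assumed to vary like the others. Genes seen in 1 organ alone numbered 16 in leaf and 96 in stem at 10 counts, and 1 and 14 at 50 counts. The most abundant 10 genes held 3.56% of leaf and 3.34% of stem counts, the most abundant 1000 held 40.7% and 37.5%, and 100 genes held 17.7% and 19.2% of FPKM.

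Replicate numbers were not shown to pair the libraries: replicate 1 minus 2 in leaf and in stem had r = -0.001 across genes on Pt and 0.083 on Cj. With the replicate block 7883 genes were called, 3831 higher and 4052 lower in leaf, 1577 of all at least 4-fold. The block changed the count of no other result by over 1.5 times, apart from the difference between rootstocks. Depth limits the lowest class, where a difference rests on a few counts.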
